A study of Mus musculus with 2 samples.

Results

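The oxidoreductases that act on alcohols, aldehydes, retinoids and other carbonyl compounds were examined in small-intestinal organoids grown with or without RankL. Members were taken by name. They are all genes whose mouse symbol starts with Adh (alcohol dehydrogenases), Aldh (aldehyde dehydrogenases), Akr (aldo-keto reductases), Cbr (carbonyl reductases), Dhrs (short-chain dehydrogenases/reductases) or Rdh (retinol dehydrogenases), followed by a digit, and whose RefSeq accession is on the arrays. This gave 66 genes with 77 probes, out of 32235 genes or accessions with 41174 probes. Of the 66 genes, 22 were counted as retinoid-related and 44 as other members.

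The organoids came from wild-type mouse small intestine and were cultured in crypt medium with EGF, Noggin and R-spondin. The treated group had recombinant mouse RankL, a cytokine that signals through the receptor RANK, at 50 to 200 ng/ml with medium renewed on day 2 and day 5, and the control group had none. For the RNAs hybridised, the sources used here do not give the exact dose, the harvest time, the age of the mice or whether cultures were pooled. The data are 2 dual-colour arrays on 1 slide, with RankL RNA in the green dye Cy3 on array 1 and in the red dye Cy5 on array 2, the labelled dye swap.

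Both arrays were taken as holding the same RNA pair, so there was 1 replicate per condition and no statistical test was possible. Every ratio is the log2 of RankL over untreated signal, and the ± gives the SD over both arrays, which is technical and does not cover how cultures vary. A gene counted as higher or lower by a size rule, which asked for a mean log2 ratio of 1 or more in size (2-fold), with each array giving 0.5 or more that way. A gene counted as measured if its probe was well above background in RankL RNA on both arrays or in untreated RNA on both. Between 38.3% and 43.4% of the 43379 non-control spots were well above background in each RNA and array. All 12 epithelial markers looked up, among them Epcam, Cdh1, Vil1 and Cdx2, were measured, and 0 of them met the size rule (median -0.06). With median centring, with no background correction and on array 1 alone Krt18 was lower, and with median centring their median was -0.38. Of 20 immune and stromal markers 4 were measured (Col1a2, Vim, Acta2 and Tagln, at -0.07 to 0.62), while the defining leukocyte genes Ptprc, Cd3e and Itgam had probes that were not. Acta2 was the one at 0.62, and a second measured probe of it read -0.09. All 14 M cell markers were higher (median 3.55), against 5.47% of all measured genes. The marker lists were chosen with earlier results of these data known, so their counts are not independent of the data. Of 15 measured enterocyte markers 7 were higher (46.7%, against 5.47%), 1 lower (Fabp1, 6.67% against 2.5%) and 7 neither (median 0.98). With the mean over a gene's probes 5 were higher (median 0.58), as Apob and Fabp2 fell short. The M cell and enterocyte lists moved beside the ratios below, and their part in them was not tested. In such a bulk RNA, fewer cells of a type and less RNA per cell cannot be told apart.

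These enzymes move hydride between a carbon-oxygen bond and NAD or NADP. Alcohol dehydrogenases and retinol dehydrogenases oxidise vitamin A (retinol) to retinal, several short-chain reductases turn retinal back to retinol, and retinal dehydrogenases of the Aldh1a group make retinoic acid, the ligand of nuclear receptors. The intestinal epithelium takes up dietary vitamin A and makes retinoic acid. The aldo-keto and carbonyl reductases and the remaining aldehyde dehydrogenases clear reactive aldehydes and ketones from food, drugs and lipid peroxidation.

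Of the 66 members 47 were measured, 43 of them in both RNAs on both arrays. The size rule was met upwards by 2 members, Adh4 and Aldh3b1, and downwards by 10, namely Cbr3, Akr1b8, Aldh1b1, Dhrs4, Akr1c19, Dhrs7, Aldh1a1, Aldh1a7, Rdh16f2 and Aldh2. The share of measured members that were higher was 4.26%, against 5.47% of all 12877 measured genes. The share that were lower was 21.3%, against 2.5% of all measured genes. The median ratio of the members was -0.19 (-0.24 on array 1 and -0.25 on array 2), against 0.009 for all measured genes, and 31 of 47 lay below 0 (66.0%, against 49.0%). The members were also brighter, with a median log2 intensity of 9.47 against 8.11 for all measured genes, and the part of brightness in the count was not tested. When genes had to be well above background in each of the RNAs, 2 of 43 members were higher and 9 lower, 4.65% and 20.9%, against 4.64% and 2.47% of 11477 genes. With a background offset of 16 the split of 2 higher and 10 lower became 4 and 10. At that offset 6.87% and 3.32% of all genes were higher and lower. With the scanner software's own ratios the split was 4 and 11, where 8.92% and 6.07% of all genes were higher and lower.

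**Figure D1:**
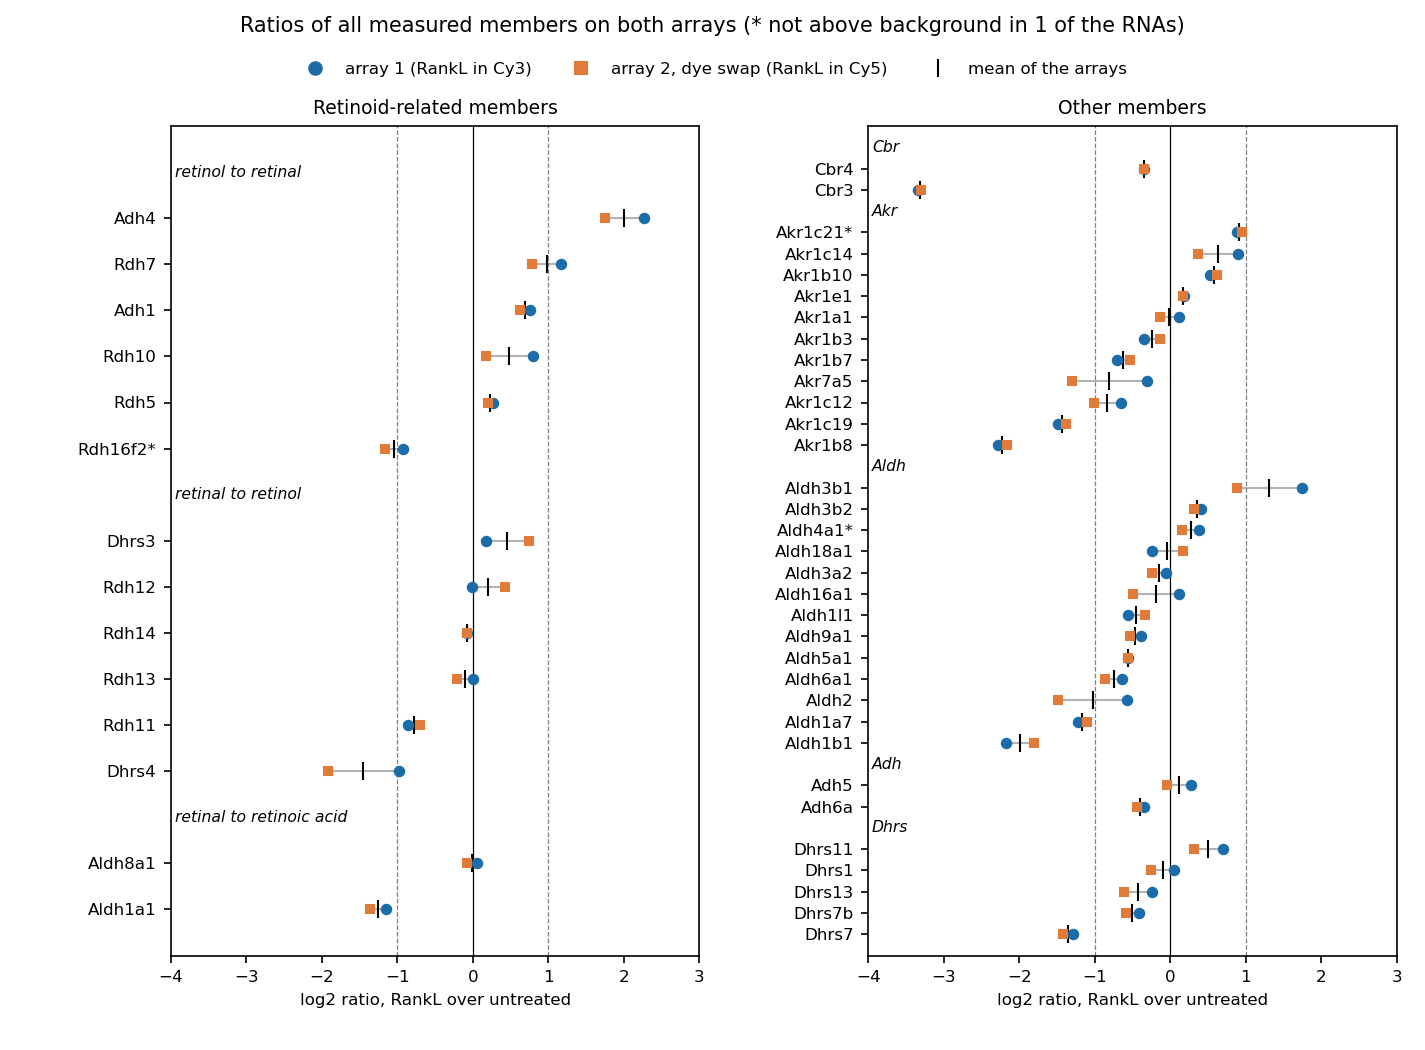
Log2 ratio of RankL over untreated RNA (x axis) for the 47 measured members, with circles for array 1, squares for the dye swap, black ticks for their mean, and dashed lines at a 2-fold difference. Cbr3 stands farthest left at -3.32 and Adh4 farthest right at 2.01; asterisks mark genes not well above background in 1 of the RNAs on either array.

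Carbonyl reductases use NADPH to reduce ketones and quinones. Cbr3 gave the lowest ratio of any member. Its normalised log2 signal was 12.20 and 12.10 in untreated RNA on arrays 1 and 2 and 8.86 and 8.80 in RankL RNA, so the RNAs were far apart on both arrays. The ratio was -3.34 and -3.30, a mean of -3.32 ± 0.028 or 9.96-fold lower. Cbr4, a mitochondrial carbonyl reductase, was at -0.34 and -0.35 and did not meet the rule. Cbr2 was not measured, and Cbr1, the gene beside Cbr3 on the chromosome, was not analysed here because no probe carried its accession.

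Aldo-keto reductases are mostly cytosolic NADPH enzymes with a barrel fold. Of 11 measured members 2 were lower (18.2%, against 2.5% of all measured genes) and 0 higher (against 5.47%). Their median was -0.24, against 0.009. Array 2 alone gave 4 lower, adding Akr1c12 and Akr7a5, but no share of all genes is given for a single array. The scanner software's ratios gave 3 lower and 1 higher, adding Akr1b7 and Akr1c21. With them 6.07% and 8.92% of all genes were lower and higher. Akr1b8, an aldose-reductase-like enzyme that reduces reactive aldehydes, read 10.94 and 10.95 in untreated RNA and 8.66 and 8.79 in RankL RNA. Its ratio was -2.22 ± 0.089, or 4.67-fold lower. Akr1c19 read 12.54 and 12.55 untreated and 11.05 and 11.17 with RankL, a ratio of -1.43 ± 0.072 (2.70-fold lower), and its second probe gave -1.24 ± 0.31. Akr1c12 was close behind at -0.83 ± 0.25, with a second probe at -0.89, and did not meet the rule. Akr7a5, an aflatoxin-aldehyde reductase, read -0.31 on array 1 and -1.31 on array 2, the widest gap between arrays of any measured member (SD 0.70). At the other end Akr1c21 was at 0.92 ± 0.048. Its untreated signal was not well above background, so the size of this ratio (1.89-fold) is uncertain. A fold given as at least sets the brighter RNA against the dimmest signal that passed the background flag on that array. Where the dim probe's own signal was higher, as for Akr1c21, that bound is the mean ratio itself and no lower limit is given.

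Aldehyde dehydrogenases oxidise aldehydes to acids. Outside the retinoid-related genes, 3 of 13 measured members were lower, 1 higher and 9 neither (median -0.45). The shares were 23.1% lower and 7.69% higher, against 2.5% and 5.47% of all measured genes. Aldh1b1, a mitochondrial acetaldehyde-oxidising enzyme, read 13.38 and 13.01 in untreated RNA and 11.21 and 11.20 in RankL RNA. That is a ratio of -1.99 ± 0.26, or 3.98-fold lower. Aldh2, the main mitochondrial enzyme for ethanol-derived acetaldehyde, was less steady. It read 9.64 and 10.07 untreated and 9.06 and 8.59 with RankL, so its ratio was -0.57 on array 1 and -1.48 on array 2 (mean -1.03 ± 0.65), and it would not meet the rule on array 1 alone. Aldh1a7, a close relative of Aldh1a1, was at -1.22 and -1.10 (mean -1.16 ± 0.082).

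Aldh3b1, which acts on lipid-derived aldehydes, was the only member of these families outside the retinoid-related ones to meet the rule upwards. It read 9.08 and 9.59 in untreated RNA and 10.83 and 10.48 in RankL RNA. The ratio was 1.75 on array 1 and 0.89 on array 2 (mean 1.32 ± 0.60, 2.49-fold), and the second array alone fell short of 2-fold. The related Aldh3b2 was at 0.36 ± 0.071 and the fatty-aldehyde enzyme Aldh3a2 at -0.15 ± 0.14. Among the rest, ratios ran from -0.75 ± 0.16 for Aldh6a1, an enzyme of valine breakdown, to 0.27 for Aldh4a1, an enzyme of proline breakdown. The latter was not above background in untreated RNA, so its 1.21-fold is the mean ratio and not a lower limit. Aldh5a1, which clears succinic semialdehyde, was at -0.56 on each array, Aldh9a1 at -0.46 and Aldh1l1, a folate enzyme, at -0.45.

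Among the remaining alcohol dehydrogenases and short-chain enzymes, 1 of 7 met the size rule. Of all measured genes 2.5% were lower and 5.47% higher. Adh5, the formaldehyde-clearing class, was at 0.12 ± 0.22 and Adh6a at -0.40 ± 0.067. Of 5 measured Dhrs genes outside the retinoid-related ones, Dhrs7, a membrane-bound reductase, was lower. It read 11.61 and 11.60 untreated and 10.32 and 10.18 with RankL, a ratio of -1.36 ± 0.093. Dhrs11 was the highest of them at 0.51 ± 0.28, and Dhrs7b, Dhrs13 and Dhrs1 lay between at -0.50, -0.43 and -0.10.

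**Figure D2:**
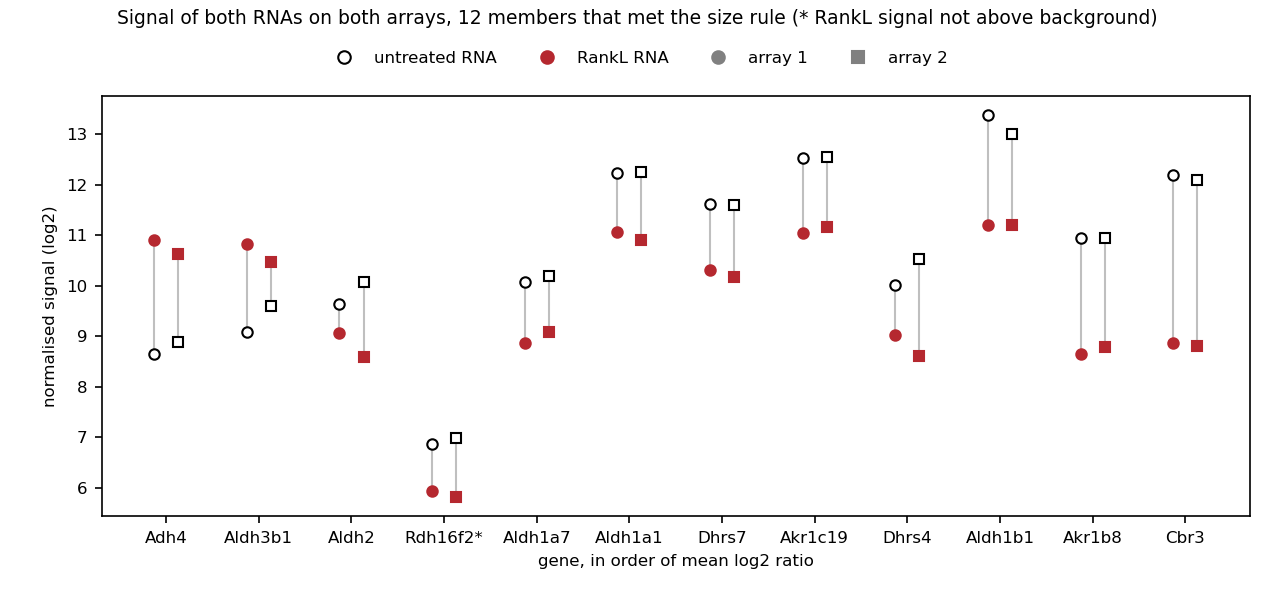
Normalised log2 signal (y axis) of untreated RNA (open) and RankL RNA (filled) on array 1 (circles) and array 2 (squares) for the 12 members that met the size rule, in order of their ratio (x axis). For Cbr3 untreated signals of 12.20 and 12.10 stand over RankL signals of 8.86 and 8.80; levels of different genes come from different probes and are not comparable.

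Retinoid-related members are grouped by the direction of the reaction they are best known for. In the first group, retinol to retinal, 6 of 12 genes on the arrays were measured, with a median of 0.59 against 0.009 for all measured genes. Of the 6, 1 was higher and 1 lower, 16.7% each, against 5.47% and 2.5% of all measured genes. By sign 1 of the 6 lay below 0 (16.7%, against 49.0%). With all 12 genes, dim ones included, the median was 0.08. The scanner software's ratios, offset 16 and array 1 alone each gave 2 higher, with Rdh7 added. Of all genes 8.92% were higher with the software's ratios and 6.87% with offset 16. Adh4, a class II alcohol dehydrogenase that also oxidises retinol, gave the highest ratio of all members. It read 8.65 and 8.88 in untreated RNA and 10.91 and 10.63 in RankL RNA, a ratio of 2.26 and 1.75 (mean 2.01 ± 0.36, 4.01-fold). Rdh7, a microsomal retinol and steroid dehydrogenase, read 9.09 and 9.27 untreated and 10.26 and 10.05 with RankL. Its ratio of 0.98 ± 0.27 missed the rule by a narrow margin. Adh1, the class I enzyme that oxidises ethanol and retinol, was at 0.69 ± 0.086 with a second probe at 0.47 ± 0.30. Rdh10, a microsomal enzyme that supplies retinal for retinoic acid, was at 0.48 ± 0.44, and its other probe read 0.65 ± 0.19. Rdh5, the 11-cis-retinol dehydrogenase of the eye, was at 0.23 ± 0.049. Rdh16f2 ran the other way. It read 6.87 and 6.98 in untreated RNA and 5.94 and 5.82 in RankL RNA, where it was not well above background, so it is given as at least 1.73-fold lower. It was counted as lower from its measured ratio of -1.05 ± 0.17, although that bound is under 2-fold. The call was lost with no background correction (-0.84), on array 1 alone and among genes above background in both RNAs.

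In the second group, retinal to retinol, all 6 genes on the arrays were measured, and 1 was lower and 0 higher (median -0.09). The share lower was 16.7%, against 2.5% of all measured genes, and 5.47% of all were higher. Dhrs4, a peroxisomal NADPH-dependent carbonyl and retinal reductase, read 10.01 and 10.53 untreated and 9.03 and 8.61 with RankL. Its ratio was -0.98 on array 1 and -1.92 on array 2 (mean -1.45 ± 0.66), so the direction was shared while array 1 alone fell just short of 2-fold. Rdh11, a microsomal retinal reductase, was at -0.79 ± 0.11. Dhrs3, a retinal reductase induced by retinoic acid in many cells, was at 0.46 ± 0.40, with a second probe at 0.57 ± 0.32. Rdh12, Rdh13 and Rdh14 were at 0.21 ± 0.30, -0.11 ± 0.16 and -0.08 ± 0.007, and of these 3 the arrays shared a sign for Rdh14 alone.

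In the third group, retinal to retinoic acid, 2 of 4 genes were measured. Aldh1a1, the cytosolic retinal dehydrogenase, read 12.23 and 12.27 in untreated RNA and 11.07 and 10.91 in RankL RNA. The ratio was -1.16 and -1.36 (mean -1.26 ± 0.14, 2.39-fold lower). Aldh8a1, which takes 9-cis-retinal and a tryptophan-breakdown aldehyde, was at -0.01 ± 0.086. Aldh1a2 and Aldh1a3, the other retinal dehydrogenases, were not measured.

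Retinoid-related and other members were then set side by side. Of 14 measured retinoid-related members 1 was higher and 3 lower, 7.14% and 21.4%. Of 33 other members 1 was higher and 7 lower, 3.03% and 21.2%. Of all measured genes 5.47% were higher and 2.5% lower. The median ratio was 0.10 for retinoid-related members (0.03 and 0.05 on arrays 1 and 2) and -0.40 for the others (-0.34 and -0.45), and 7 of 14 against 24 of 33 lay below 0. Over all measured genes the median was 0.009 and 49.0% lay below 0, close to the values of the retinoid-related members. On array 1 alone 2 retinoid-related members were higher and 1 lower, as Rdh7 passed and Dhrs4 and Rdh16f2 fell short. The difference between retinoid-related and other members could not be tested with 1 RNA pair. Its size also rests on the list. With the Rdh genes, Aldh1a1, Aldh1a2 and Aldh1a3 alone, 0 were higher and the median was -0.08, against -0.29 for the others. With Adh5, Aldh1a7, Dhrs7, Akr1b3, Akr1b7, Akr1b8 and Akr1b10 added to the full list, the median was again -0.08, against -0.37 for the others. That list held 6 lower members, as the added Aldh1a7, Dhrs7 and Akr1b8 were lower.

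**Figure D3:**
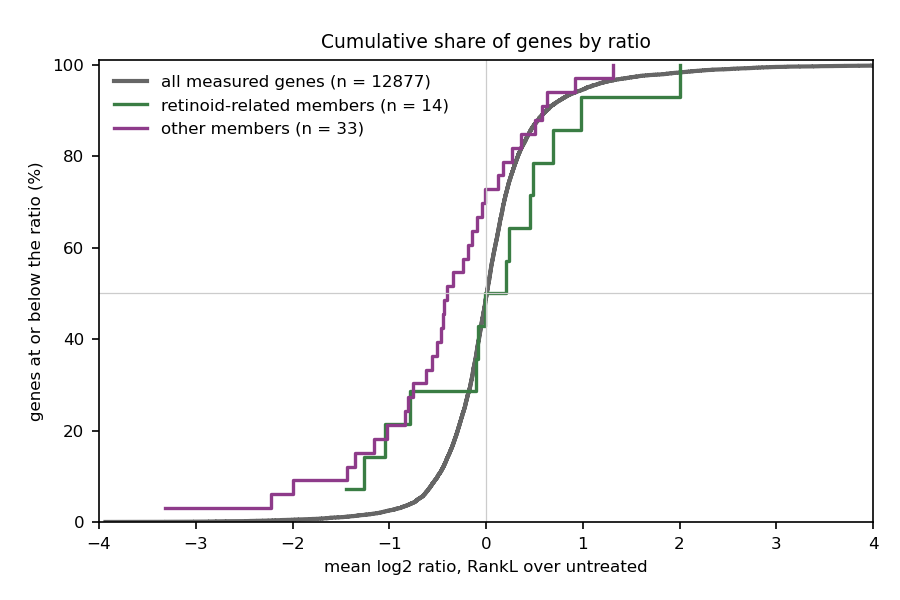
Cumulative share of genes (y axis, percent) at or below each mean log2 ratio (x axis) for 12877 measured genes (grey), 14 retinoid-related members (green) and 33 other members (purple). The purple curve crosses 50% at -0.40 and the green curve near 0.10, where all genes cross near 0.

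Several members lie side by side in the genome with no other annotated protein-coding gene between them, and in several of these runs ratios of opposite sign stood side by side. In the Akr1b run the order is Akr1b3, Akr1b8, Akr1b10 and Akr1b7, with ratios of -0.24, -2.22, 0.57 and -0.62. The difference between Akr1b8 and the gene next to it had the same sign on both arrays (-2.29 against 0.53, and -2.16 against 0.62). In the Adh run Adh4, at 2.01, stood near Adh6a at -0.40 and Adh5 at 0.12. In the Akr1c run Akr1c19 and Akr1c12 were at -1.43 and -0.83, while Akr1c14 and Akr1c21, the outermost Akr1c genes, were at 0.63 and 0.92. Rdh7, at 0.98, lies next to Rdh16f2, which was at least 1.73-fold lower. Aldh1a1 and Aldh1a7, also direct neighbours, were close to each other at -1.26 and -1.16. Genes in these runs are alike in sequence, and probes of one may bind transcripts of another, so values for single genes of the Akr1b, Akr1c, Rdh16 and Aldh1a groups are uncertain.

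**Figure D4:**
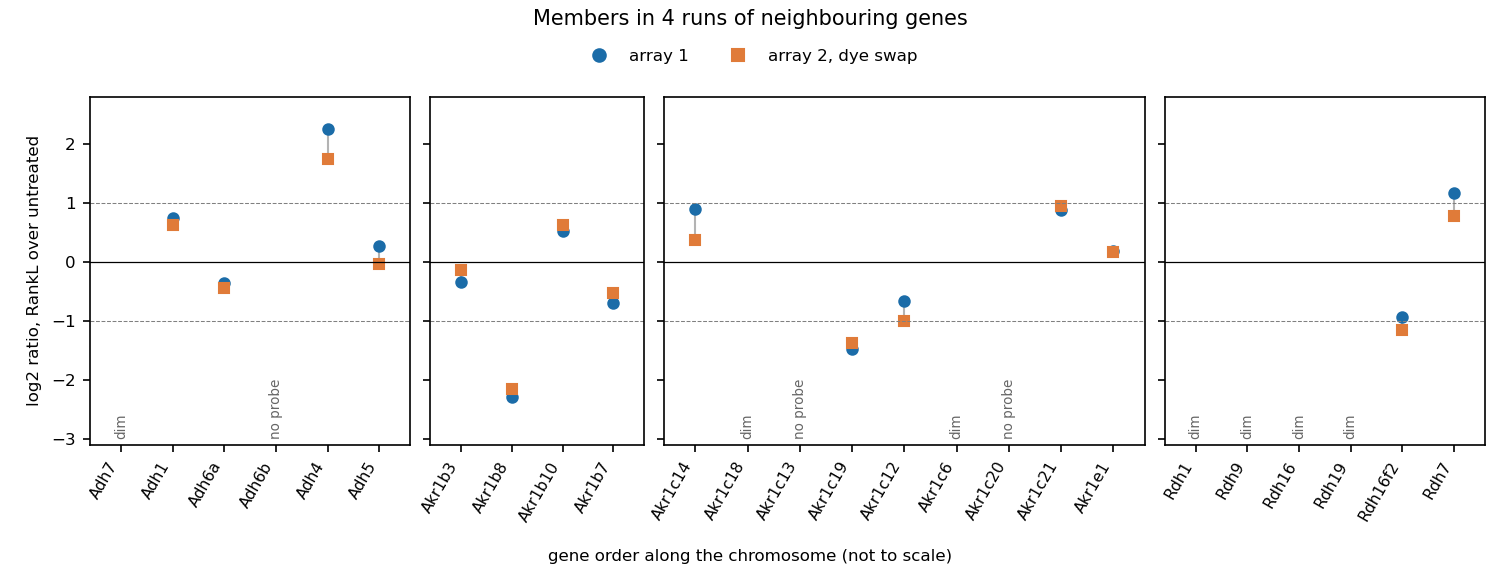
Log2 ratio of RankL over untreated RNA (y axis) for genes in 4 runs of neighbours, in gene order along the chromosome (x axis, not to scale), with circles for array 1, squares for the dye swap and dashed lines at a 2-fold difference. Akr1b8 at -2.22 stands next to Akr1b10 at 0.57; "dim" marks genes not measured, "no probe" genes without a probe by accession, and Rdh16f2 and Akr1c21 were dim in 1 of the RNAs.

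Promoter windows from RefSeq (mouse build GRCm38.p6, 250 bases before to 50 after each start) were available for 42 of the 47 measured members. They are shown for both members that were higher, for the pair of lowest ratio, and for Akr1c19, the only lower member matching the second motif below. Capitals mark matches on either strand to AGGTCA, the hexamer that retinoic acid receptors and other nuclear receptors bind, or to TGACNNNGC, the core of the antioxidant response element bound by NRF2. The motifs share the letters TGAC on one strand, and each window shown held matches to at most 1 of them.
Adh4 (chr3:138415247-138415546, plus strand): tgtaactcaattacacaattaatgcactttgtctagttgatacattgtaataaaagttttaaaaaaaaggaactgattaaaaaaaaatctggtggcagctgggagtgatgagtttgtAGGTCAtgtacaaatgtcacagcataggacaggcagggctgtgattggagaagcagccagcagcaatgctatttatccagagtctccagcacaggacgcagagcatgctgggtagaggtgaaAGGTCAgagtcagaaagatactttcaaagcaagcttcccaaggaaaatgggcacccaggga
Aldh3b1 (chr19:3929729-3930028, minus strand): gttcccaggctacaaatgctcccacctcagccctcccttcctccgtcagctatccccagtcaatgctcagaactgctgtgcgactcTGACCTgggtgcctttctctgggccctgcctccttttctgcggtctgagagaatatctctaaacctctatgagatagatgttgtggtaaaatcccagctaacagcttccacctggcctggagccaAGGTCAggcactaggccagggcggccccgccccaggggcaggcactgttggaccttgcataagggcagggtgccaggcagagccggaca
Cbr3 (chr16:93682969-93683268, plus strand): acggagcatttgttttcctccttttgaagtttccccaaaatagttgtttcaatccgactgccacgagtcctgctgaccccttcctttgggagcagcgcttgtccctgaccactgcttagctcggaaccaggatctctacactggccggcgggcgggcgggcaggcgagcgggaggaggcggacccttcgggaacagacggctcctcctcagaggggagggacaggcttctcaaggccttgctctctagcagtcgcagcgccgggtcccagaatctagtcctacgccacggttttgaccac
Akr1b8 (chr6:34353896-34354195, plus strand): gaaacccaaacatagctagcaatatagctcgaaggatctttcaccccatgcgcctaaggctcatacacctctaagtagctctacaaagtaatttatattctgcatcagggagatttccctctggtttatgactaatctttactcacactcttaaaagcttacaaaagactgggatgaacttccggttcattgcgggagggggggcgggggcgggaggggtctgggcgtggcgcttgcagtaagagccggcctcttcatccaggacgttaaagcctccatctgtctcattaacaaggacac
Akr1c19 (chr13:4233490-4233789, plus strand): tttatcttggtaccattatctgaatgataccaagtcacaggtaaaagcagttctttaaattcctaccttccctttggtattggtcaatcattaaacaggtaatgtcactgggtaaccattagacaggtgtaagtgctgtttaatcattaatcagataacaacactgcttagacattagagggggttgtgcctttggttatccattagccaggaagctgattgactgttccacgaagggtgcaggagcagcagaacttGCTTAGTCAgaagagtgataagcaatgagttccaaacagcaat
AGGTCA was found in the windows of both higher members, with 2 matches in each. It was also in 1 of 9 lower members with a window (Rdh16f2, whose window is not shown). It was found in 10 of 42 measured members and in 16.3% of all 32851 windows. TGACNNNGC was found in 4 of 42 measured members, of which only Akr1c19 was lower, and in 12.4% of all windows. A loose NF-kB site pattern, also searched, was in 25 of 42 measured members, 1 of 2 higher and 3 of 9 lower ones, and 50.8% of all windows. These are matches of letters in a short window, chosen after the ratios were known. Members were counted by gene, with a match in any window of the gene, while the share of all windows counts each window. These shares are thus in unlike units.

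Other genes of vitamin A handling were looked up from a list of 37. Of 16 measured, 1 was higher (6.25%, against 5.47% of all measured genes), 3 were lower (18.8%, against 2.5%) and 12 were neither. Their median was -0.20, against 0.009 for all measured genes. Rbp7, a cellular retinol-binding protein, was at -2.74 and -2.16 (mean -2.45 ± 0.41), while a second probe, not well above background in RankL RNA, read -0.82. Retsat, which saturates retinol, was at -1.81 ± 0.097, and Cyp2s1, a P450 able to metabolise retinoic acid, at -1.88 ± 0.41. Hsd17b6, a short-chain enzyme that oxidises steroids and retinol, was the one higher, 2.12-fold by the mean of both arrays. Its untreated RNA was not well above background. It fell short on array 2 alone (0.93), where Stra6 was the one higher, and 0 were higher among genes above background in both RNAs. Stra6, a retinol transporter, was at 0.77 ± 0.37 and the lipase Lpl, dim in untreated RNA, at 0.55 ± 0.14. Isx, which represses vitamin A uptake, was at -0.39 ± 0.11 and the carotenoid receptor Scarb1 at -0.34 ± 0.24. The receptors Rara, Rarb and Rarg and the retinoic acid hydroxylases Cyp26a1 and Cyp26b1 had probes but were not measured.

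Several carbonyl and aldo-keto reductases are known targets of NRF2, a transcription factor released by the electrophile sensor KEAP1, so NRF2 targets outside the member families were also looked up. The list had 24 genes, counting the genes for NRF2 and KEAP1 themselves, and 22 were measured. By the size rule 6 were lower (27.3%, against 2.5% of all measured genes) and 2 higher (9.09%, against 5.47%), and the median was -0.27. Neither side of the rule was met by 14. Genes of this list were brighter, with a median log2 intensity of 11.15 against 8.11, and the part of brightness was not tested. On array 1 alone 5 were lower, as Gsr fell short. The lower ones were the glutathione transferases Gstm1, Gsta3 and Gsta4 at -2.79 ± 0.076, -1.69 ± 0.006 and -1.47 ± 0.098, the glucuronate supplier Ugdh at -1.79 ± 0.33, the quinone reductase Nqo1 at -1.30 ± 0.19 and glutathione reductase Gsr at -1.04 ± 0.25. The higher ones were sulfiredoxin Srxn1 at 1.97 ± 0.17 and the glutathione synthesis subunit Gclc at 1.19 ± 0.15. Hmox1 was at 0.64 ± 0.30, and Nfe2l2, which encodes NRF2, at 0.59 ± 0.22. Keap1 was at -0.56 ± 0.15 and the exporter Abcc3 at -0.58 ± 0.14.

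The 19 members not measured cannot be given a direction. They include the retinoid-related genes Adh7, Rdh1, Rdh9, Rdh16, Rdh19, Dhrs9, Aldh1a2 and Aldh1a3. The others were Adh6-ps1, Akr1c6, Akr1c18, Akr1cl, Akr1d1, Aldh1l2, Aldh3a1, Aldh7a1, Cbr2, Dhrs2 and Dhrs7c. Akr1c6, Aldh1a2, Rdh9, Rdh19 and Cbr2 were above background on 1 array in at least 1 RNA. The other measured members, all short of the size rule, were Akr1b10, Akr1c14, Akr1e1, Akr1a1, Akr1b3, Akr1b7, Aldh18a1 and Aldh16a1, at 0.57, 0.63, 0.18, -0.01, -0.24, -0.62, -0.04 and -0.19.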

How the data were processed

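Total RNA of organoids was hybridised to 2 dual-colour Agilent arrays. The deposited scanner output holds median spot and local background intensity per dye, per the file headers from Agilent Feature Extraction version 10.5.1.1, with probes placed on mouse build mm9 (the submitters' processing notes name 8.5.1.1). The deposited log10 ratios, background-subtracted and dye-normalized by that software per the file headers, equal the series matrix within 5e-06 once array 1 is turned, with a median of 0 in each column. Their direction is the one used here. Deposited flags of 0 or 1 mark spot quality.

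Background was corrected with normexp (offset 50) and ratios normalized by loess with 1639 control spots at weight 0, in limma 3.58.1 under R 4.3.3. Outlier spots (246 and 231) were left out, and 0 spots were saturated. Ratios were turned to RankL over untreated and averaged. Signals in the text are log2 values per channel after loess and Aquantile scaling. A gene took its measured probe of highest mean intensity. Symbols came from RefSeq accessions of assembly GRCm38.p6, matched without version for 26918 of 41174 probes. Of 74 symbols there that match the name rule, 8 had no probe by accession. Coordinates are given for the RefSeq promoter windows alone, since the design's build is a different one. The steps were tested on simulated data. Both arrays lie on 1 slide, and their number limits the precision.

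Named genes were every member that met the size rule, every measured retinoid-related member and the highest and lowest of each family. From the other vitamin A genes and the NRF2 targets, those meeting the rule and up to 4 more measured ones of largest ratio were named. Cell type markers are given mainly by count. Remaining members are given by symbol and value. The members, lists and tests were chosen with earlier results of these data known. Alternatives changed the offset, background correction, normalization, source of ratios, filter on dim probes, probe per gene, array, size rule and retinoid-related list.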

Additional observations from a re-analysis of the deposited data

How the results depend on the processing

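Of the 12 members that met the size rule, all kept their sign under the alternatives tried. The counts of members lower ran from 7 (array 1 alone) to 15 (a size rule of 0.58 and 0.29), and array 1 alone lost Dhrs4, Aldh2 and Rdh16f2. No share of all genes is given here for single arrays or the looser size rule, so their counts stand without a comparison. Leaving out 1 array gave 1 to 3 members higher, with 1 to 2 retinoid-related members higher, 1 to 3 lower and a retinoid-related median of 0.028 to 0.049. Offset 16 and the scanner software's ratios each gave 4 members higher, 2 of them retinoid-related, adding Rdh7 and Akr1c21. The shares of all genes higher were 6.87% and 8.92%. Offset 16 gave 10 members lower against 3.32% of all genes. The software's ratios gave 11 members lower against 6.07% of all genes. They put the retinoid-related and other medians at 0.017 and -0.503, median centring at 0.055 and -0.497, and all probes at 0.039 and -0.167. Probes above background in both RNAs gave a retinoid-related median of 0.206. The looser size rule gave 6 members higher, 3 of them retinoid-related. The broad retinoid-related list held 6 lower members with a median of -0.078, against -0.372 for the others. The narrow one, Rdh genes with Aldh1a1, Aldh1a2 and Aldh1a3, held 0 higher with a median of -0.078, against -0.293 for the others. No p-value exists beside these counts, since there is 1 RNA pair. Without Rdh16f2, chosen after seeing the data, 9 members and 2 retinoid-related ones were lower. The software's ratios gave 3 higher and 5 lower of 16 other vitamin A genes. Of the measured members, 7 had an SD between arrays above the 90th percentile of all genes (0.382), among them Akr7a5, Dhrs4, Aldh2 and Aldh3b1. The cause of these shifts was not tested.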
